A study of Mus musculus with 13 samples.

Results

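The genes described here encode the machinery that copies DNA and rebuilds chromatin behind the replication fork. They are a list of 52 mouse genes, chosen with earlier results of these data known. The list was matched by symbol to the Ensembl gene columns of the deposited tables. All 52 were among the 16382 genes of the tables, and all 52 were among the 13142 genes that passed the filter on low counts. The cells were C2C12 myotubes, the fused, multinucleated stage of a mouse myoblast line, labelled wild type. Control cultures (CON) received DMSO, the vehicle, and treated cultures (PEA) received palmitoylethanolamide, a fatty acid amide, at 10 μM. Both treatments were given for 24 h from day 8 in low serum differentiation medium, which all cultures shared, and each group comprised 6 libraries of poly-A selected RNA. The cultures came from 1 cell line, in duplicate wells of a repeated experiment. The 6 libraries of a group are therefore not 6 independent repeats, and the labels do not tie wells to repeats. All p-values, also those of permutation tests, treat the libraries as independent. They measure the spread between these libraries, part of which may be technical.

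DNA replication starts with licensing, in which the origin recognition complex, Cdc6 and Cdt1 load the ring-shaped MCM2-7 helicase onto DNA. At the onset of S phase, kinases and loading factors convert the ring into an active helicase, polymerases copy both strands, and nucleases and a ligase join the fragments of the lagging strand. Histone chaperones and DNA methylation maintenance factors then restore chromatin. Many of these genes are classical targets of E2F transcription factors and are transcribed most around the G1 to S transition, and they are kept low in fused myotubes, which have left the cell cycle. A differentiated C2C12 culture also keeps mononucleated cells that did not fuse.

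Libraries held between 12354845 and 50397444 estimated counts, with CON replicate 1 at 2.25 times the depth of the next library, so its values carry the least counting error. Of the 20 myotube markers, 19 were in the tables and all 19 were detected in every library, with a summed level of 6731 to 10269 CPM (counts scaled to equal library totals) in CON and 7073 to 8010 CPM in PEA. The macrophage list (5 of 6 markers in the tables) summed to 3.88 to 8.07 CPM in CON and 5.35 to 7.02 CPM in PEA, the endothelial list to at most 1.49 CPM and the adipocyte list (2 of 4) to at most 2.42 CPM. The defining markers Ptprc, Cdh5 and Plin1 reached at most 8.40 normalized counts in any library. Other markers of these lists were higher, and 2 macrophage markers, 1 adipocyte marker and 0 endothelial markers passed the filter on low counts. The 11 dividing-cell markers, such as Mki67 and Aurkb, moved with treatment. Their summed level was 155 to 392 CPM in CON, lowest in CON replicate 3 and highest in CON replicate 2, and 380 to 467 CPM in PEA. All 11 were called higher in PEA, whereas 5 myotube markers were called lower and 0 higher, by edgeR (0 higher also at an unadjusted p under 0.05 and in DESeq2). Over all genes tested, 6.31% were called higher and 4.74% lower. Of the 11 myoblast and reserve cell markers, 1 (Cd34) was called higher and 2 (Id3 and Cdh15) lower (3 lower in DESeq2). Of 7 fibroblast markers tested 2 (Col1a2 and Dcn) were called higher (1 in DESeq2) and 0 lower. At an unadjusted p under 0.05 in edgeR 1 fibroblast marker was lower, and the lowest log2 fold change of that list was -0.77. The fibroblast list summed to 3642 to 4795 CPM in CON and 3802 to 4413 CPM in PEA. In bulk RNA, more cells of a type and more RNA per cell cannot be told apart, and the part of the dividing cells in the results that follow was not tested.

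The replication genes were higher in PEA as a group, but this list was chosen with earlier results of these data known. The counts that follow describe these 52 genes and are not independent support for a group effect. With edgeR's quasi-likelihood test and Benjamini-Hochberg adjustment over all genes tested, 29 of the 52 were significantly upregulated vs. CON, and 23 were not called. None fell, either in edgeR, at an unadjusted p under 0.05 or in DESeq2 (0 genes in each). Of all genes tested, 829 (6.31%) were called higher and 623 (4.74%) lower. The log2 fold change was above 0 for 49 of the 52 genes, with a median of 0.31, beside a median of 0.01 over all genes tested. For 16 of them the 6 PEA libraries all lay above the 6 CON libraries, a separation found in that direction for 2.53% of all genes. DESeq2 called 30 of the 52 higher, beside 7.48% of all genes.

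Summed over the 52 genes, the level was 1678 to 1865 CPM in CON and 1955 to 2350 CPM in PEA, so the sums did not overlap. The dividing-cell markers did overlap. CON replicate 2 reached 392 CPM for these markers, above PEA replicates 2 and 4. By the mean log2 CPM of the markers, each centred over all libraries, CON replicate 2 (0.27) lay above PEA replicate 4 (0.24) but below PEA replicate 2 (0.29). Its sum for the replication genes (1790 CPM) lay below that of every PEA library. The part of dividing cells in these sums was not tested. Among the PEA libraries, replicate 2 held the lowest value for 32 of the 52 genes and replicate 1 the highest for 29. Without PEA replicate 2 the count of upregulated genes stayed at 29, and leaving out each library in turn gave counts from 23 (without PEA replicate 6) to 29.

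**Figure D1:**
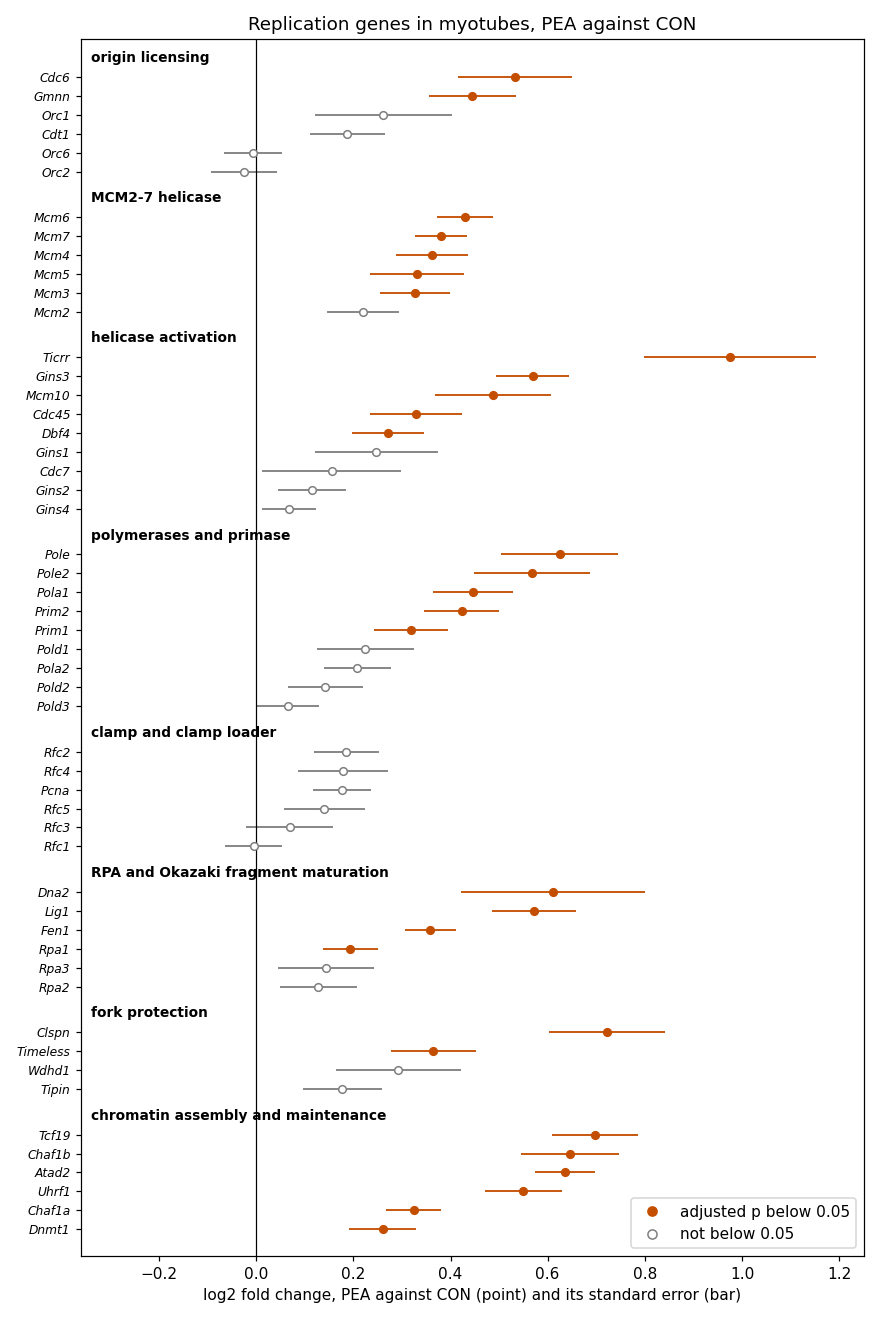
Log2 fold change of each of the 52 replication genes, PEA against CON, on the horizontal axis, with bars for the standard error and the genes grouped by role on the vertical axis. Filled points are the 29 genes with an adjusted p below 0.05 and open points the other 23. All 6 chromatin assembly genes are filled and all 6 genes of the clamp and clamp loader are open.

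The plot of log2 fold changes shows that the roles differed in how many of their genes were called. All 6 genes of chromatin assembly and maintenance were called higher by edgeR, and 5 of the 6 MCM2-7 subunits (6 in DESeq2 and 4 with an offset for gene length and GC content). Helicase activation had 5 of 9 (3 with the offset) and RPA with Okazaki fragment maturation had 4 of 6 (2 with the offset). Cdc45, Dbf4, Rpa1 and Dna2 were lost from these 2 roles with the offset, and also without PEA replicate 6. The polymerases with primase had 5 of 9, fork protection had 2 of 4 and origin licensing had 2 of 6, unchanged with the offset. The sliding clamp and its loader had 0 of 6 by edgeR, with 2 at an unadjusted p under 0.05 and 0 in DESeq2. The median log2 fold change ran from 0.16 for the clamp and loader to 0.59 for chromatin assembly. Whether roles differed from each other was not tested.

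The DNA around their starts was searched for 3 short elements of cell cycle promoters. Windows of 250 bases before and 50 bases after the start of the Ensembl canonical transcript were read from the GRCm39 genome for all 52 genes. The E2F word was any of TTTCCCGC, TTTCGCGC, TTTGCCGC and TTTGGCGC on either strand. It was present in 15 of the 52 windows (28.8%), beside 469 of 12143 windows (3.86%) of all protein-coding genes tested. It was present in 10 of the 29 genes called higher and in 5 of the 23 not called. Before the start alone, 6 genes held it (11.5%, beside 3.11% of all genes), and all 6 were upregulated, beside 29 of all 52. Whether the word goes with the call was not tested. Their stretches are shown because they hold the words outside the transcribed sequence of the canonical transcript. Each runs 5′ to 3′ on the strand of its gene, with the words in capitals, and a word in the opposite orientation appears as its reverse complement. They lie at chr15:57998717-57998753 (Atad2), chr13:24946117-24946156 (Gmnn), chr16:15455456-15455513 (Mcm4), chr8:75835959-75836020 (Mcm5), chr1:128287516-128287577 (Mcm6) and chrX:92675867-92675924 (Pola1), on the minus strand except for Mcm5.
Atad2: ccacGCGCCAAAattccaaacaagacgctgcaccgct
Gmnn: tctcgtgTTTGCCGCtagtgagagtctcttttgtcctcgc
Mcm4: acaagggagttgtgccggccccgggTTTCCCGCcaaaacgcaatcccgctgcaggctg
Mcm5: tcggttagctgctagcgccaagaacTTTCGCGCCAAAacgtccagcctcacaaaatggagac
Mcm6: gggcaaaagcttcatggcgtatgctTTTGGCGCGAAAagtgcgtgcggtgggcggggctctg
Pola1: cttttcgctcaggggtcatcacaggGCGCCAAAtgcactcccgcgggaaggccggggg

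In Mcm5 and Mcm6 a pair of words on opposite strands overlapped and formed 1 longer run of capitals. The stretch of Gmnn also overlaps an antisense long noncoding RNA gene in the annotation. Mcm4 and Mcm6 each held 1 further word nearer the start that lies outside the printed stretch. By role, the E2F word stood in 4 of the 6 MCM2-7 windows and 4 of the 6 origin licensing windows, and in 0 of the 6 windows of RPA and Okazaki fragment maturation. The CCAAT box (CCAAT, either strand) was present in 30 of 52 windows (57.7%), beside 39.9% of all genes. The CHR element (TTTGAA or TTCGAA, either strand), known from genes expressed in G2 and M phase, was present in 4 of 52 windows (7.69%), beside 15.5% of all genes. In RefSeq windows of the GRCm38.p6 build, an alternative chosen after the data had been seen, that order turned, with the CHR element in 10 of 42 windows (23.8%) beside 16.5% of all genes, while the E2F word remained more frequent than in all genes (40.5% beside 4.77%). In the RefSeq windows the E2F word was present in 12 of 24 genes called higher and in 5 of 18 not called. These matches describe letters in a window, and binding was not measured.

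Of the 6 origin licensing genes, Gmnn and Cdc6 were called higher, and Cdt1 and the 3 subunits of the origin recognition complex were not. Gmnn, which encodes geminin, the inhibitor of Cdt1, had normalized counts of 267, 325 and 360 (lowest, median and highest) in CON and 387, 424 and 492 in PEA. All 6 PEA libraries exceeded every CON library (log2 fold change 0.44, SE 0.09, adjusted p = 0.00597, edgeR). Cdc6, the ATPase that recruits the helicase to origins, had 176, 200 and 231 in CON and 224, 277 and 373 in PEA, with 1 PEA library inside the CON range (0.53, SE 0.12, adjusted p = 0.00985). Cdt1, the partner of Cdc6 in loading, had medians of 572 and 608 and was not called (0.19, SE 0.08, adjusted p = 0.118). Orc1, the cell-cycle-regulated subunit of the origin recognition complex, had medians of 99.5 and 117 and was not called (adjusted p = 0.246). Its partners Orc2 and Orc6 had log2 fold changes of -0.03 and -0.01, with adjusted p values of 0.842 and 0.962, and their groups overlapped.

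The MCM2-7 subunits form 1 hexamer and were called nearly as a set. Mcm6 (chromosome 1, 128259311 to 128287516, minus strand, GRCm39) had normalized counts of 1475, 1664 and 1794 in CON and 1951, 2297 and 2404 in PEA. Mcm7 had 1257, 1412 and 1492 in CON and 1633, 1811 and 1941 in PEA. Neither gene overlapped between the groups, and their log2 fold changes were 0.43 (SE 0.06, adjusted p = 0.000467) and 0.38 (SE 0.05, adjusted p = 0.000579) in edgeR. Mcm3, Mcm4 and Mcm5 rose by 0.33, 0.36 and 0.33 on the log2 scale, each with at least 1 PEA library inside the CON range. Mcm2 had 1082, 1163 and 1397 in CON and 1196, 1441 and 1571 in PEA and was not called by edgeR (0.22, SE 0.07, adjusted p = 0.063), but was called by DESeq2 (adjusted p = 0.0476). CON replicate 3 held the highest CON value of Mcm2, and the gene passed without it (adjusted p = 0.029) and without PEA replicate 4 (adjusted p = 0.0336). Mcm5 was called in 5 of the 12 fits that left out 1 library, those without CON replicates 2 or 3 or PEA replicates 2, 4 or 5, and its adjusted p lay between 0.0552 and 0.0742 in the others.

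Helicase activation held the largest fold change of the list. Ticrr (treslin, a factor that loads Cdc45; chromosome 7, 79309939 to 79347896) had 58.6, 75.3 and 112 normalized counts in CON and 106, 168 and 196 in PEA, and rose by 0.98 on the log2 scale (SE 0.18, adjusted p = 0.00339, edgeR). The only PEA library within the CON range was replicate 4, and CON replicate 2 was the highest of CON. Ticrr was also the gene with the lowest CON level per length, at 0.403 ± 0.0992 CPM per kb of exon (SD, n = 6). Gins3, a subunit of the GINS complex that completes the active helicase, had 215, 233 and 259 in CON and 314, 346 and 383 in PEA, with no overlap (0.57, SE 0.07, adjusted p = 0.000467). The other GINS subunits had smaller differences, with log2 fold changes of 0.25 for Gins1, 0.11 for Gins2 and 0.07 for Gins4, and none was called (adjusted p between 0.22 and 0.466, with edgeR).

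Mcm10, which stabilises the active helicase, rose by 0.49 (SE 0.12), and Cdc45, its core cofactor, by 0.33 (SE 0.09). Dbf4, the activating subunit of the Cdc7 kinase that fires origins, had 400, 447 and 498 in CON and 463, 531 and 605 in PEA (0.27, SE 0.07, adjusted p = 0.0275). The catalytic subunit Cdc7 had 99.8, 117 and 163 in CON and 96.1, 140 and 167 in PEA, and its groups overlapped almost fully (0.16, SE 0.14, adjusted p = 0.526). Dbf4 lost its call without CON replicates 3 or 5 or PEA replicates 4, 5 or 6 (adjusted p between 0.0517 and 0.0725), and Cdc45 kept its call only without CON replicates 2 or 6 or PEA replicates 3 or 5 (0.0536 to 0.074 in the other fits).

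**Figure D2:**
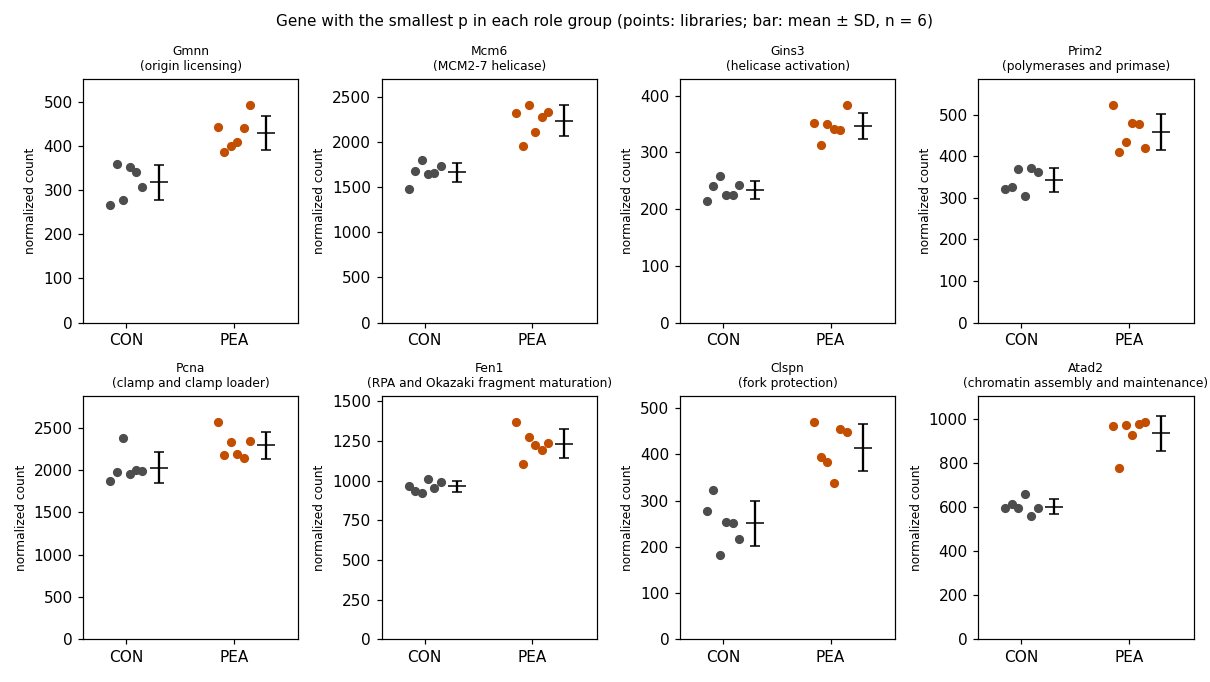
Normalized counts per library (vertical axes, linear and starting at 0) of the gene with the smallest p in each of the 8 roles, in CON (gray points) and PEA (orange points), with the mean and SD of 6 libraries at the right of each group. Apart from Pcna, the PEA points of each gene lie above all its CON points.

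Among the replicative polymerases, both primase subunits, both polymerase ε subunits of the list and the catalytic subunit of polymerase α were called, and no polymerase δ subunit was. Prim2, the large primase subunit, had 304, 345 and 371 in CON and 411, 456 and 523 in PEA (difference 0.42 on the log2 scale, SE 0.08, adjusted p = 0.00353, edgeR). Pola1, the catalytic subunit of polymerase α, which starts each fragment, had 234, 285 and 331 in CON and 346, 386 and 408 in PEA (0.45, SE 0.08, adjusted p = 0.00384). Both genes separated the groups without overlap. Pola2, the second subunit of polymerase α, had 505, 539 and 653 in CON and 563, 653 and 686 in PEA and was not called (0.21, SE 0.07, adjusted p = 0.0623), but passed without CON replicate 5 (adjusted p = 0.0293) or PEA replicate 2 (0.047). Pole, the catalytic subunit of the leading-strand polymerase ε, had 162, 191 and 279 in CON and 277, 326 and 348 in PEA, with CON replicate 2 above the lowest PEA library (0.62, SE 0.12, adjusted p = 0.00492). Pole2, its second subunit, had 110, 154 and 192 in CON and 199, 238 and 269 in PEA (0.57, SE 0.12, adjusted p = 0.00783), and Prim1, the catalytic primase subunit, rose by 0.32 (SE 0.08). The lagging-strand polymerase subunits Pold1, Pold2 and Pold3 had log2 fold changes of 0.22, 0.14 and 0.07 and none was called. Pold3 had 528, 574 and 664 in CON and 590, 614 and 634 in PEA, so that its PEA values lay wholly within the CON range.

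No gene of the clamp and its loader was called by edgeR or DESeq2. Pcna, the sliding clamp that holds polymerases on DNA, was the most abundant gene of the list per length, at 44.1 ± 3.92 CPM per kb in CON and 49.9 ± 3.36 CPM per kb in PEA (SD, n = 6). Its normalized counts were 1872, 1983 and 2383 in CON and 2141, 2260 and 2566 in PEA (log2 change 0.18, SE 0.06, adjusted p = 0.0636, edgeR). CON replicate 3 stood apart from the other CON libraries for Pcna, and without it the gene was called (0.23, adjusted p = 0.0096). Rfc2, a subunit of the loader, had medians of 769 and 868 and an adjusted p of 0.0777, which became 0.0413 without CON replicate 2 and 0.0379 with libraries thinned to equal depth. Rfc1, the large loader subunit, had 938, 1101 and 1163 in CON and 983, 1081 and 1141 in PEA (-0.01, SE 0.06, adjusted p = 0.967). Rfc3, Rfc4 and Rfc5 had log2 fold changes of 0.07, 0.18 and 0.14.

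Of the genes that protect single-stranded DNA and mature Okazaki fragments, the flap nuclease and the ligase were called with no overlap. Fen1, which trims the flaps, had 921, 958 and 1011 in CON and 1102, 1230 and 1369 in PEA (log2 change 0.36, SE 0.05, adjusted p = 0.000758, edgeR). Lig1, which seals the nicks, had 506, 517 and 673 in CON and 704, 842 and 952 in PEA (0.57, SE 0.09, adjusted p = 0.000937). Dna2, a nuclease for long flaps, rose by 0.61 but with a larger error (SE 0.19, adjusted p = 0.0467) at a low level of 39.1 to 72.2 normalized counts in CON. The single-strand binding subunit Rpa1 rose by 0.19 (SE 0.06, adjusted p = 0.0387), while Rpa2 and Rpa3 were not called. Rpa3 had 272, 326 and 384 in CON and 303, 363 and 410 in PEA (0.14, SE 0.10, adjusted p = 0.369). Dna2 kept its call only without CON replicate 6 or PEA replicate 2 (0.0551 to 0.12 in the other fits), and Rpa1 only without CON replicates 2 or 6 or PEA replicate 2 (0.0508 to 0.0808 in the others).

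Fork protection was divided. Clspn, which encodes claspin, the adaptor that couples the fork to checkpoint signalling, had 183, 252 and 323 in CON and 337, 421 and 470 in PEA, with no overlap (log2 fold change 0.72, SE 0.12, adjusted p = 0.00176, edgeR). Timeless had 272, 314 and 350 in CON and 360, 384 and 465 in PEA and did not overlap either (0.36, SE 0.09, adjusted p = 0.016). Tipin, whose product forms a complex with Timeless, had 427, 493 and 583 in CON and 485, 556 and 623 in PEA and was not called (0.18, SE 0.08, adjusted p = 0.17). Wdhd1, which links the helicase to polymerase α, had a log2 fold change of 0.29 (SE 0.13) and was not called.

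Every gene of chromatin assembly and maintenance was called, and 5 of its 6 genes did not overlap between the groups. Atad2, a bromodomain ATPase that binds chromatin (chromosome 15, 57957440 to 57998516, minus strand), had the smallest p of the 52 genes. Its normalized counts were 560, 596 and 659 in CON and 778, 970 and 987 in PEA (log2 change 0.64, SE 0.06, adjusted p = 0.000155, edgeR), and PEA replicate 2 lay below the other PEA libraries but above all CON libraries. Tcf19, a nuclear protein first described as a growth-regulated factor, had 369, 457 and 514 in CON and 603, 740 and 804 in PEA (0.70, SE 0.09, adjusted p = 0.000467). Chaf1b and Chaf1a, subunits of the chaperone that places new histones at the fork, did not overlap between the groups. Chaf1b had 223, 272 and 332 in CON and 365, 427 and 484 in PEA (0.65, SE 0.10, adjusted p = 0.00125), and Chaf1a had 856, 929 and 977 in CON and 1027, 1134 and 1298 in PEA (0.32, SE 0.06, adjusted p = 0.00268). Uhrf1, which recognises hemimethylated DNA, had 692, 725 and 827 in CON and 907, 1092 and 1255 in PEA (0.55, SE 0.08, adjusted p = 0.000783). Dnmt1, the maintenance DNA methyltransferase that Uhrf1 recruits, had 985, 1155 and 1278 in CON and 1269, 1339 and 1591 in PEA, with 1 PEA library inside the CON range (0.26, SE 0.07, adjusted p = 0.0249). Dnmt1 was the weakest of the role and lost its call without CON replicate 5 (adjusted p = 0.0517) or PEA replicate 6 (0.062).

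**Figure D3:**
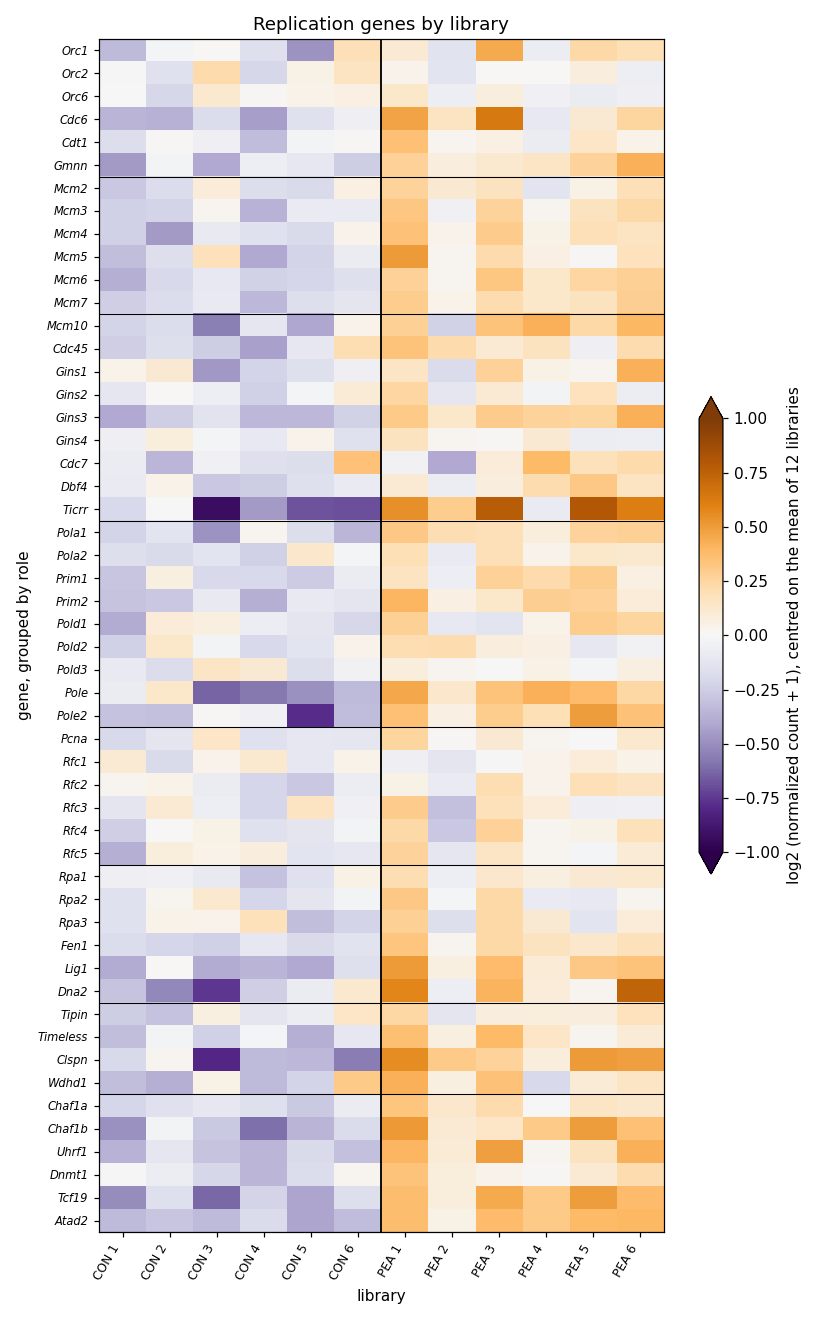
Each of the 52 replication genes (rows, grouped by role with lines between roles) in each of the 12 libraries (columns, CON at the left and PEA at the right of the vertical line), colored by log2 (normalized count + 1) centred on the mean of the gene over the 12 libraries. PEA replicate 2 is the palest PEA column, with the lowest PEA value of 32 genes, and CON replicate 3 is low for Ticrr and Clspn but high for Mcm5 and Pcna.

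The map of values by library shows that CON libraries were not uniformly low. CON replicate 3 held the lowest CON value of 10 genes, among them Pola1, Pole, Clspn, Ticrr, Tcf19 and Fen1, and the highest CON value of 13 others, among them Mcm2, Mcm3, Mcm5, Mcm6, Mcm7 and Pcna. CON replicate 4 was the lowest of CON for 15 genes and CON replicate 6 for 1. CON replicate 2 was the highest of CON for 16 genes and CON replicate 6 for 14. PEA replicate 2, the lowest of PEA for 32 genes, was sequenced in 2 runs, and whether its values (16202357 estimated counts) hold 1 run or both is not stated. Without it, 29 of the 52 genes were called higher.

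To compare partner genes independently of library scaling, 8 ratios of estimated counts were formed within each library and compared between the groups with an exact permutation test (two-sided), for which the smallest p that 6 against 6 libraries can give is 0.00216. Of these, 1 passed adjustment over the 8 pairs. The ratio of Uhrf1 to Dnmt1 was 0.555, 0.680 and 0.714 in CON and 0.715, 0.742 and 0.976 in PEA, and all 6 PEA libraries lay above every CON library, although the closest libraries nearly touched. The difference was 0.28 on the log2 scale (exact permutation p = 0.00216, adjusted p = 0.0173), and it was 0.13 when medians were compared and 0.30 when libraries were thinned to equal depth, neither of which passed (adjusted p = 0.0519 in both). The ratio of Chaf1b to Chaf1a was 0.241, 0.299 and 0.356 in CON and 0.312, 0.379 and 0.417 in PEA, with 4 PEA libraries above every CON library (0.32, exact permutation p = 0.013, adjusted p = 0.0519). It passed without CON replicate 2 (adjusted p = 0.0173), PEA replicate 2 (0.0346) or PEA replicate 3 (0.0346).

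The other 6 ratios did not pass. Cdt1 to Gmnn, a licensing factor over its inhibitor, had medians of 1.8 in CON and 1.5 in PEA (log2 difference -0.25, exact permutation p = 0.0584, adjusted p = 0.117). Orc1 to Orc2 had medians of 0.0870 and 0.0999 (0.28, exact permutation p = 0.0563, adjusted p = 0.117). The log2 differences were 0.12 for Dbf4 to Cdc7, 0.17 for Rfc4 to Rfc1, -0.07 for Pole2 to Pole and -0.10 for Prim1 to Prim2, with adjusted p between 0.256 and 0.701 in the exact permutation test. The ratio of Pole2 to Pole varied more among CON libraries (0.550 to 1.18) than among PEA libraries (0.640 to 0.813).

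**Figure D4:**
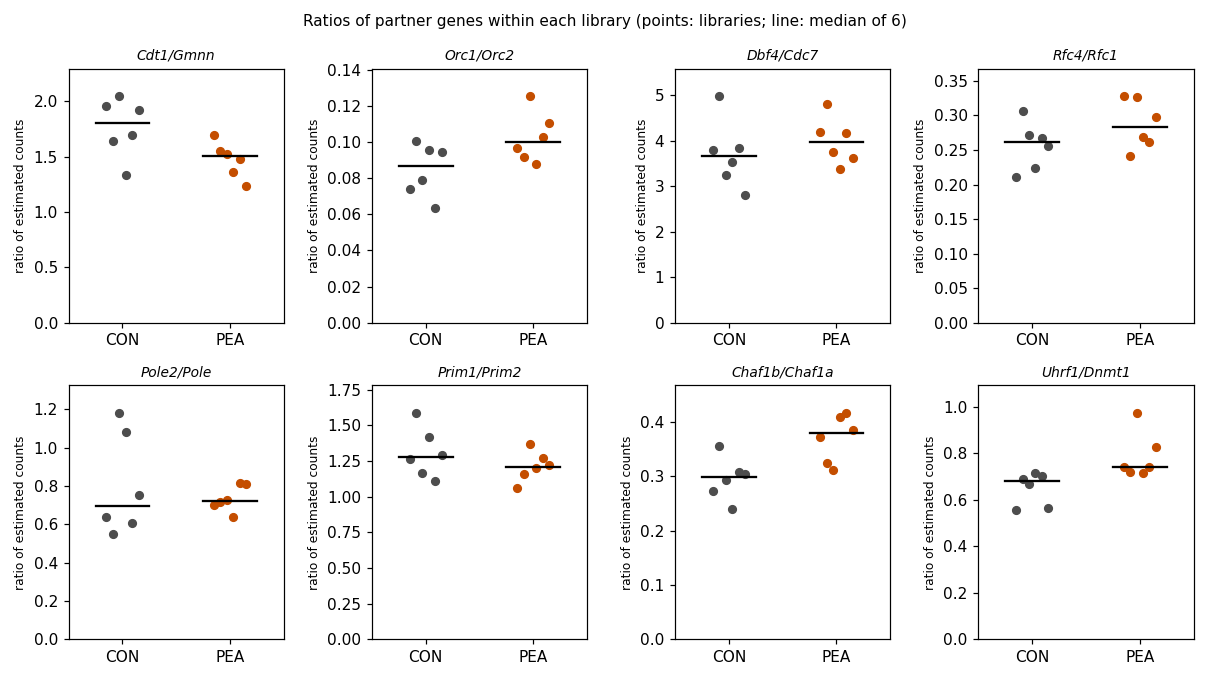
Ratio of the estimated counts of 2 partner genes within each library (vertical axes, linear and starting at 0) for 8 pairs, in CON (gray) and PEA (orange), with a line at the median of 6 libraries. The PEA points of Uhrf1/Dnmt1 all lie above its CON points, from 0.715 upward against 0.714 at most, and the other pairs overlap.

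Per kb of exon, CON levels ran from 0.403 CPM for Ticrr and 0.461 CPM for Dna2 to 17.4 CPM for Rpa1 and 44.1 CPM for Pcna. Across the 52 genes the log2 fold change was smaller at higher CON levels per kb (Spearman rho -0.46), a description only, since both quantities use the same CON libraries and genes are not replicates. Of the 8 genes with the lowest CON level (0.403 to 1.33 CPM per kb), Ticrr, Dna2, Pole, Mcm10, Pola1 and Clspn were called higher, and Orc1 and Cdc7, at 0.886 and 0.940 CPM per kb, were not. The log2 fold change of all genes tested also rose slightly with exon length (Spearman rho 0.13, against 0.23 over the 52 genes). With an offset that removes each library's trend against the length and GC content of genes, an alternative chosen after the data had been seen, 24 of the 52 were called higher and 0 lower, with a median of 0.25. The same offset moved the calls over all genes from 829 higher and 623 lower to 694 higher (5.29%) and 1251 lower (9.53%), and the median over all genes to -0.04. The 5 genes that lost their call were Mcm5, Cdc45, Dbf4, Rpa1 and Dna2.

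**Figure D5:**
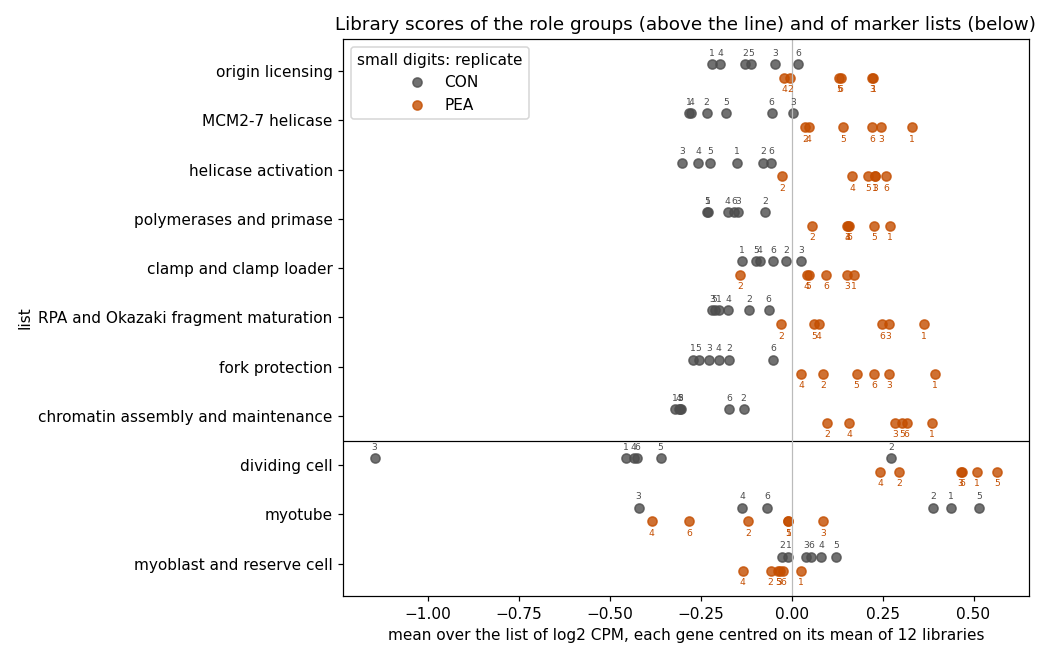
Mean over each list of log2 CPM, each gene centred on its mean over 12 libraries (horizontal axis), for the 8 roles above the line and for 3 marker lists below it, with 1 point per library (CON gray, PEA orange, small digits for the replicate). The PEA points lie above all CON points for MCM2-7, helicase activation, the polymerases, RPA with Okazaki fragment maturation, fork protection and chromatin assembly, and overlap them for origin licensing, the clamp and loader and the marker lists.

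The dividing-cell score spanned -1.15 to 0.27 in CON (-0.45 to 0.27 without CON replicate 3) and 0.24 to 0.57 in PEA. That of chromatin assembly and maintenance spanned -0.32 to -0.13 in CON and 0.10 to 0.39 in PEA. For the clamp and loader the spans were -0.14 to 0.03 in CON and -0.14 to 0.17 in PEA. CON replicate 3, the lowest library for the dividing-cell markers, was also the lowest of CON for the helicase activation score (-0.30) and that of RPA and Okazaki fragment maturation (-0.22), but was the highest of CON for the MCM2-7 and the clamp and loader scores.

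A further 45 genes of the replication pathway, listed by function, were read from the same fit. Of these, 14 were called higher (31.1%, against 6.31% of all genes tested) and 0 lower (4.74% of all genes) in edgeR, beside 3 lower at an unadjusted p under 0.05 and 1 lower in DESeq2, and their median log2 fold change was 0.11. The smallest p values belonged to Asf1b, Traip, Top2a, Pclaf and Mms22l, and all 5 separated the groups without overlap. Asf1b, a histone chaperone that hands histones to the Chaf1 complex, had medians of 487 in CON and 814 in PEA (0.68, SE 0.09). Traip, a ubiquitin ligase that unloads helicases, had medians of 93.9 and 167 (0.80, SE 0.12). Top2a, the topoisomerase of dividing cells, rose by 0.95 and ranged from 686 to 1754 within CON. Pclaf, a PCNA-binding factor, rose by 0.95, and Mms22l, which with Tonsl protects stalled forks, rose by 0.58. The origin recognition subunits Orc3, Orc4 and Orc5, the polymerase ε subunits Pole3 and Pole4 and the histone-binding Rbbp4 and Rbbp7 were not called, with log2 fold changes between -0.12 and 0.10.

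Many replication genes share a short promoter region with a gene on the opposite strand. Such a neighbour, with its start within 1000 bases, was annotated for 27 of the 52 genes (29 neighbours), and 13 neighbours were tested. Of these, 1 was called higher and 0 lower, beside 6.31% and 4.74% of all genes tested, with a median log2 fold change of -0.05. Prkdc, opposite Mcm4, had a log2 fold change of 0.18 (adjusted p = 0.205, edgeR), and Pxmp2, opposite Pole, had -0.12 (adjusted p = 0.76). Zswim9, opposite Lig1 and overlapping it over 1459 bases, had -0.15 (adjusted p = 0.287, edgeR). The neighbour called higher was Cchcr1 (0.39, adjusted p = 0.0107, edgeR). Its gene span, introns included, overlaps that of Tcf19 over 4077 bases on the opposite strand. Without stated strand-specific counting, reads from the shared bases cannot be told apart by strand. The gene spans of Orc2, Rfc5 and Chaf1a likewise overlap those of the opposite-strand genes Nif3l1, Wsb2 and Ubxn6 over 23140, 10520 and 5245 bases.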

How the data were processed

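RNA-seq libraries of C2C12 myotubes, 6 CON and 6 PEA, were analysed. The labels list 13 entries because PEA replicate 2 has a top-up run that names the same values, which were used once; whether they hold 1 run or both is not stated. The authors trimmed reads, aligned them to mm39 (GRCm39) with STAR 4.4.1d in Partek Flow and quantified them to Ensembl genes. The authors deposited 1 table with an estimated count per gene and library and a second with a signal, these counts after division by the DESeq2 median ratio of the library, called normalized counts here. Of the values above 0, 30.8% lay more than 0.01 from a whole number, and all estimated counts were rounded for the tests. Every gene in the tables has a total of at least 10.

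Differential expression was tested with edgeR 4.0.16 in R 4.3.3 (quasi-likelihood test, TMM, default filter on low counts) on 13142 genes, p-values were adjusted by Benjamini-Hochberg and the threshold was 0.05. The script was tested on simulated data. Log2 CPM used a prior count of 2. Ratios were compared with scipy 1.17.1. The GENCODE annotation of GRCm39 gave symbols, exon lengths and starts for 16343 of the 16382 gene identifiers, and the comparison of promoter windows used the RefSeq table of GRCm38.p6 as an alternative. Figures were drawn with matplotlib 3.10.9.

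The members, roles, marker lists and ratio pairs were chosen with earlier results of these data known. Genes with full values are, for each role, those with the 2 smallest p values and the largest p, the genes of the ratio pairs, the 5 other pathway genes with the smallest p and divergent neighbours. Further genes, such as Mcm3, Mcm5, Mcm10, Cdc45, Rpa1, Dna2, Wdhd1, Pola2, Pold1, Pold2, Gins1 and Rfc5, were named to account for every member of the list. Alternatives were DESeq2 1.42.0, limma 3.58.1 (voom, and log2 of the normalized counts with a pseudocount of 1), median-of-ratios size factors, no filter, at least 10 counts in every library, libraries thinned to the smallest total, the replicate number as a block, each library left out in turn and, chosen after the data had been seen, an offset for exon length and GC content (loess span 0.3) and the RefSeq windows. Errors include counting error and the spread between libraries and nothing else.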

Additional observations from a re-analysis of the deposited data

Results flagged for a closer look

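Values of the named genes and ratios were examined in 96 groups of 6 libraries for a library that stood apart from the rest, and chance gives about 1 such library in 20 groups. Those that did were the 2 below. Pcna was at 2383 normalized counts in CON replicate 3, and the next CON library was at 2003, a gap of 0.743 of the range of the group. Atad2 was at 778 normalized counts in PEA replicate 2, and the next PEA library was at 928, a gap of 0.717 of the range.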

How the results depend on the processing

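The count of replication genes called higher was 28 to 30 under limma-voom, DESeq2, median-of-ratios factors, both filters, thinning and the normalized counts in limma, 24 with the offset for exon length and GC content and 23 to 29 without 1 library, and 0 were called lower in any of these fits. Of the 29 genes, 23 were called in every one of the 9 alternatives and the 12 fits without 1 library. Other pathway genes called lower numbered 1 in DESeq2 (Top1), 2 with the offset (Top1 and Rbbp4) and 0 to 2 without 1 library, with 1 (Top1) without CON replicate 3 and both without PEA replicate 3 (0 in the primary fit). The replicate numbers did not pair the libraries, since the deviations of same-numbered libraries correlated between -0.083 and 0.065 and none correlated best with its own number. With the replicate block 30 genes were called higher, Mcm2 among them (adjusted p = 0.0425, edgeR), and the ratio of Uhrf1 to Dnmt1 (0.28, by construction the same difference) lost its call, with an exact permutation p of 0.0313, the smallest that 6 pairs can give, and an adjusted p of 0.25. The same difference was 0.13 for medians and 0.30 with thinned libraries (adjusted p = 0.0519 in both exact permutation tests) and 0.21 to 0.30 without 1 library. The difference for Chaf1b to Chaf1a was 0.27 to 0.38 without 1 library. That for Pole2 to Pole was 0.058 for medians and -0.17 to 0.054 without 1 library, the values above 0 being those without CON replicates 3 and 4. Log2 fold changes near 0 changed sign, with 0.0016 for Orc6 and 0.0065 for Rfc1 in thinned libraries. Without 1 library Orc6 ranged from -0.045 to 0.0188, Rfc1 from -0.042 to 0.0173 and Orc2 from -0.066 to 0.0193. The share of windows with an E2F word was 11.5% before the start alone, where the window is shorter, and 40.5% (17 of 42) in the RefSeq windows, and that with a CHR element was 23.8% in the RefSeq windows against 7.69%. The causes of these shifts were not tested.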
